A study of Homo sapiens with 6 samples.

Results

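Replicate 1 of the study, 2 of its 6 arrays, was compared with replicates 2 and 3, the other 4 arrays, to describe which genes differed between these rounds of arrays whichever cells had been hybridised. The 2 arrays are those whose titles carry replicate number 1, 1 labelled trypsin-2 and 1 labelled control vector, and the 4 are those with numbers 2 and 3, 2 of each label. All RNA came from HSC-3, a cell line from a squamous cell carcinoma of the human tongue. Per the labels the cells had been made to overexpress trypsin-2, a serine protease encoded by PRSS2, or carried a control vector, and no other allele or agent set the groups apart. All cells were grown for 48 h in medium with 10% fetal calf serum and 0.4 ng/ml hydrocortisone, detached with trypsin, washed and frozen before RNA extraction. From 2 µg of total RNA labelled cRNA was prepared and read on Affymetrix oligonucleotide arrays. The labels do not say whether a replicate number stands for a culture, a labelling or a scan, nor whether a transfected line was 1 clone. The free-text descriptions of the replicate 1 samples carry no running number, while those of the other 4 do. Culture, RNA preparation and array processing therefore cannot be told apart as sources of a difference between rounds. The p-values therefore describe no more than the spread among the arrays, and that spread may be technical.

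Immediate early genes such as FOS, EGR1 and DUSP1 are transcribed within minutes of a change of serum, detachment or stress, from promoters held ready for the serum response factor and for CREB and ATF proteins. Their RNAs decay quickly. Genes of the ERK MAP kinase pathway such as ETV4, ETV5, the SPRED and SPRY inhibitors and cyclin D1 follow sustained growth factor signalling. Interferon-stimulated genes are read through promoter elements bound by ISGF3, and cholesterol synthesis genes through SREBP2, which responds to cell sterol.

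Promoter windows of genes from the immediate early and interferon-stimulated lists are printed here, as both lists are known for short promoter motifs. Both held genes called lower in replicate 1 (13 of 25 and 12 of 31, against 11.9% of all tested genes). Windows run from 250 bases before to 50 bases after the gene's start, on the gene's strand, from RefSeq on GRCh38.p14. In the first 3 windows capitals mark CArG boxes and the letters TGACG on either strand, the core of the CREB and ATF site. FOS lies at chr14:75278578-75278877 on the plus strand, EGR1 at chr5:138465229-138465528 on the plus strand and DUSP1 at chr5:172771146-172771445 on the minus strand.
FOS: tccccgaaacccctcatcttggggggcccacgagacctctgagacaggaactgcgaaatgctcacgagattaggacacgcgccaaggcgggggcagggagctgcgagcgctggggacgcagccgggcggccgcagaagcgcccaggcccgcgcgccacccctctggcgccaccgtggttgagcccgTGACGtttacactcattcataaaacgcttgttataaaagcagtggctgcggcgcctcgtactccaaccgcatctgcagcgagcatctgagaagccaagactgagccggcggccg
EGR1: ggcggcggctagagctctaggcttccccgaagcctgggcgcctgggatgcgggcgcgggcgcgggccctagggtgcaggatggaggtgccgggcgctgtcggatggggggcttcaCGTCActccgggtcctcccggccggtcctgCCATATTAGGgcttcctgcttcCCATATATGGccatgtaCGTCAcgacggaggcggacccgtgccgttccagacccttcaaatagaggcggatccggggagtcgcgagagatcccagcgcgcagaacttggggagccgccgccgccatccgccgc
DUSP1: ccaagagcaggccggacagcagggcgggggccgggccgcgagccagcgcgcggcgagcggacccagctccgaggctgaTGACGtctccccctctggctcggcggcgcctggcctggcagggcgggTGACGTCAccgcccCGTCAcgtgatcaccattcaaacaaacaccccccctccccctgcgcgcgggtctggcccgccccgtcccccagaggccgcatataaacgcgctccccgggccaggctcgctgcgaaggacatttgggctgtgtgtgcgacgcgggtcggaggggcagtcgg
The EGR1 window holds 2 CArG boxes, the windows of FOS and DUSP1 none, and each of the 3 holds TGACG at least once. Bases further than 250 before the start were not searched, so motifs there are not counted. In DUSP1 one TGACG is part of the full palindrome TGACGTCA, whose 2 strands overlap. Searched on both strands, TGACG was found in 7 of 11 windows of immediate early genes called lower and in 11 of 19 of those tested. It was also found in 34.2% of 9885 windows of tested genes and in 25.0% of all 27305 windows. A CArG box was found in 1 of the 11 windows, that of EGR1, against 1.05% of tested genes and 1.29% of all windows. In the next windows capitals mark the core of the interferon-stimulated response element on either strand, TTTC, any 2 bases and TTTC. IFIT1 lies at chr10:89392373-89392672 and IFIT3 at chr10:89327747-89328046, both on the plus strand.
IFIT1: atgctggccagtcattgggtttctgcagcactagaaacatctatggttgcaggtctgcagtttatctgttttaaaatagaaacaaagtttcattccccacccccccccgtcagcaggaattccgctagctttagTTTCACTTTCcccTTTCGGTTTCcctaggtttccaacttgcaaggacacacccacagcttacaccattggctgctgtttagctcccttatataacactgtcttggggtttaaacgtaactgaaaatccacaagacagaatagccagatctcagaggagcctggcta
IFIT3: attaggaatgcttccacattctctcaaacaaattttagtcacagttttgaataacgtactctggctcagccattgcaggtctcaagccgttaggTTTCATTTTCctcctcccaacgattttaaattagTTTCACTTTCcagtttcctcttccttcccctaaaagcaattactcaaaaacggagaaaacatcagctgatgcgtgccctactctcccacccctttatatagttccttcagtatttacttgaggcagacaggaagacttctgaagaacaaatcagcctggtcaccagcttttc
Each window holds the motif 2 times. It was found in 8 of 11 windows of interferon-stimulated genes called lower and in 16 of 25 of those tested, against 2.81% of tested genes and 3.65% of all windows. These counts describe the letters of the windows and show no binding.

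The trypsinogen signals, which bear on the labels, went against them on replicates 2 and 3. The brighter PRSS2 probe set gave 20.4 (labelled trypsin-2) and 19.6 (labelled vector) on replicate 1. It gave 13.8 and 14.6 on the arrays of replicates 2 and 3 labelled trypsin-2, and 80.8 and 83.2 on those labelled vector. The 2 labels thus gave like signals in replicate 1 and stood apart in the other replicates. The round difference of this probe set was a log2 of -0.59 ± 0.31 (SE, adjusted p = 0.196). It turned to 0.27 without the replicate 1 array labelled vector and lay further below 0 without the one labelled trypsin-2. Its difference in round effect between labels was 1.73 on the log2 scale (limma interaction, unadjusted p = 0.00055, not passed after adjustment over all probe sets). The dimmer PRSS2 probe set gave 19.9 and 22.6 on replicate 1, 17.9 and 19.5 on the others labelled trypsin-2, and 38.0 and 54.5 on those labelled vector. The tested probe set of PRSS3, another trypsinogen gene, ran from 12.6 to 27.0 over the 6 arrays, with the rounds overlapping. All of these probe sets can read related trypsinogen sequences, and it is not known here whether any reads the introduced sequence. Arrays are named by their label throughout.

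Signals are the authors' MAS5 values, and all differences are replicate 1 minus replicates 2 and 3 on the scale of log2(signal + 16), with the label as a covariate. That scale understates the change of dim probe sets. The array medians ran from 14.7 to 17.5, with the rounds overlapping. Principal component 1 of the tested probe sets, with 45.6% of the variance, parted replicate 1 from the other arrays, and component 2, with 21.7%, parted the labels. All 10 squamous epithelium markers with a probe set of their own were above the filter in this carcinoma line, with summed signals of 31682 to 34569 in replicate 1 and 26279 to 29776 in the others. The markers did not move together. KRT5, KRT14, ITGB4, LAMB3 and PKP1 were higher in replicate 1 without overlap, and SFN, CDH1 and EPCAM overlapped. DSP (2991 and 3064 against 3381 to 3992) and DSG3 (152 and 153 against 186 to 197) were lower without overlap. Of 9 fibroblast markers 4 were above the filter, with sums of 186 to 202 against 146 to 181, and COL1A2, COL3A1, LUM and both PDGF receptors were below it. Of 6 leukocyte markers only CD14 was above it, and PTPRC, CD3E and LYZ were near the floor. The leukocyte sums of 38.5 to 45.8 against 56.0 to 128 follow CD14, which gave 22.3 to 79.5 outside replicate 1 and was below the filter level of 15.2 on both of its arrays. Of 5 endothelial markers 1, PECAM1, was above the filter.

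Ribosomal RNA signals were lower in replicate 1. The probe set for the middle of 28S ribosomal RNA gave 682 and 530 on replicate 1 against 2061, 2030, 2300 and 2537 on the other arrays, a log2 difference of -1.86. That for the 5' end of 18S ribosomal RNA gave 20.1 and 36.1 against 105, 149.7, 201 and 167, a log2 difference of -1.95. All 6 ribosomal RNA control probe sets were lower in replicate 1 with no overlap, by log2 differences of -0.69 to -1.95. Ribosomal RNA has no poly(A) tail, and the sources used here do not give how the labelling was primed, so that these signals are no measure of the ribosomal RNA in the cells. For ACTB the 3' over 5' signal, as a log2 ratio that rises as RNA is shorter, was 0.21 and 0.25 in replicate 1 against 0.46 to 0.59. That of GAPDH was 0.03 and 0.09 against values from -0.0050 to 0.021. The pooled Alu repeat signal was higher by a log2 of 0.15. The hybridisation spike cre was lower by 0.19 with no overlap, whereas bioB, bioC, bioD and the 4 poly(A) spikes overlapped between rounds. Of 20 such measures 10 did not overlap, each but 1 at the smallest p the design allows (exact two-sided permutation test over 15 choices of 2 arrays, p = 0.067, 0.148 after adjustment over the 20). The part these measures have in the gene differences below was not tested.

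**Figure D1:**
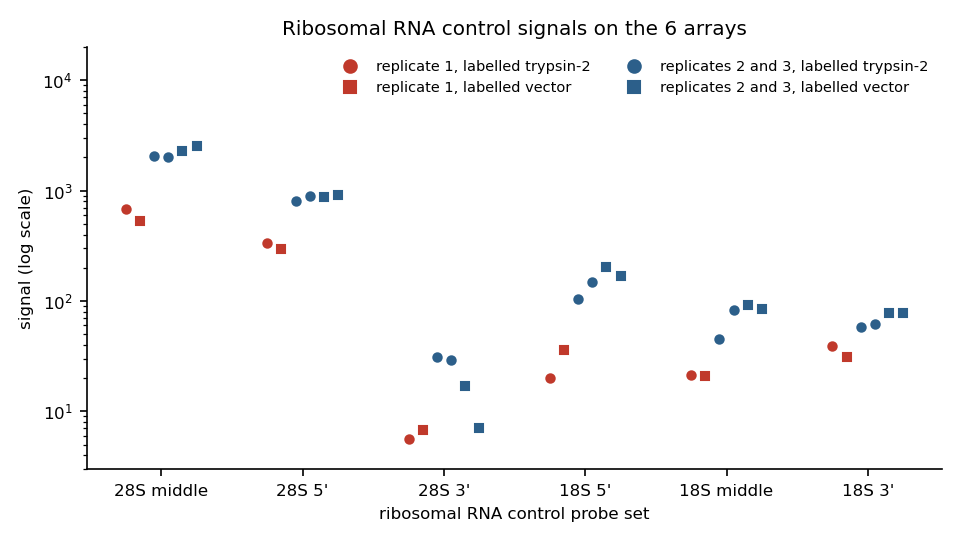
Signals (log scale) of the 6 ribosomal RNA control probe sets on each array, with replicate 1 in red and replicates 2 and 3 in blue, circles for arrays labelled trypsin-2 and squares for those labelled vector. Both replicate 1 arrays lie below all 4 others in each probe set, and the gap is narrowest for the 3' probe set of 28S (6.79 against 7.06).

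Of 12151 genes tested, limma called 3041 at an adjusted p under 0.05, which is 25.0% of them, with 1599 higher (13.2%) and 1442 lower (11.9%) in replicate 1. The signals of the rounds did not overlap in 4924 genes (40.5%), and in 2750 of the 3041. Most differences were small, with a median absolute log2 of 0.46 among called genes, 1728 of them under 0.5 and 155 at 1 or more (112 higher, 43 lower). The median over all genes was 0.01. The share of genes called depended on the mean level. By level, 1.07% of the dimmest decile were called lower, against 24.4%, 24.6% and 22.7% of deciles 8, 9 and 10. The share called higher was 2.06% in the dimmest decile, 20.7% in decile 6 and 11.4% in the brightest. The gene lists below are set beside the shares of all genes, not of genes of like level. The count rests on each replicate 1 array: 699 genes were called without the one labelled trypsin-2 and 1320 without the one labelled vector, each of which leaves 1 array in the round. With a variance prior that did not follow intensity 1576 were called. Of 4480 tested probe sets without a single symbol, counted apart, 335 were called higher (7.48%) and 377 lower (8.42%). Of the called genes 1731 had a further tested probe set, and in 681 of these at least 1 further probe set had the opposite sign. Where a further probe set was itself called, 963 in all, 110 went the other way.

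Each label gives an estimate of the round difference from 3 arrays of its own, 1 of them of replicate 1. Over the 12151 genes the round difference within arrays labelled trypsin-2 and that within arrays labelled vector correlated with r = 0.67 (rho = 0.65), and 75.1% had the same sign. These values are across genes, which are not independent, and both estimates share any processing that set the rounds apart. Of 263 genes with an absolute log2 of 1 or more under the trypsin-2 label, 94.7% had the same sign under the vector label. Their median under the vector label, signed so that the trypsin-2 direction is positive, was 0.87, against a median absolute size of 1.18 under the trypsin-2 label. Of 151 such genes under the vector label, 94.7% had the same sign under the trypsin-2 label. No gene was called for a difference of the round effect between labels (limma interaction, 0.0% called), with 491 at an unadjusted p under 0.05, and 10 were called with array medians centred. The 5 smallest unadjusted p belonged to NACA4P, LYPLA2, CXCL8, PRSS2 and PRKCSH. CXCL8, a neutrophil chemokine, gave 2506 on replicate 1 labelled trypsin-2 against 3288 and 3091 on the others of that label, and 2395 labelled vector against 1911 and 1931. Replicate 1 was the lowest array of the trypsin-2 label and the highest of the vector label, and the interaction did not pass after adjustment.

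**Figure D2:**
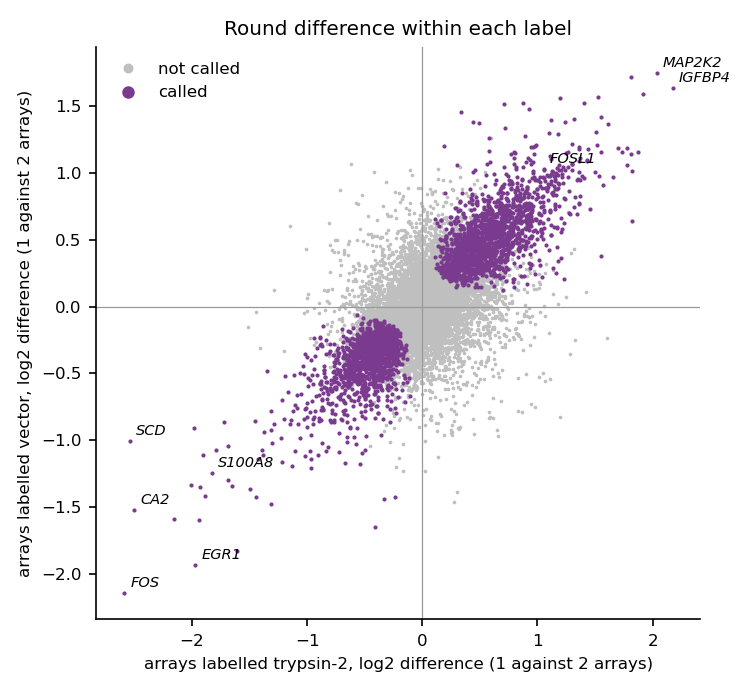
Round difference of each of the 12151 genes within the arrays labelled trypsin-2 (horizontal axis) and within those labelled vector (vertical axis), 1 array against 2 on the scale of log2(signal + 16), with called genes in purple. The genes lie along the rising diagonal (r = 0.67), with FOS, EGR1 and CA2 at its lower end and MAP2K2 and IGFBP4 at its upper end.

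Immediate early genes held the largest fall by size, that of FOS. FOS, an AP-1 subunit, gave 82.2 (labelled trypsin-2) and 56.5 (labelled vector) on replicate 1, against 646 and 514 on the others labelled trypsin-2 and 280.3 and 331 on those labelled vector. The means were 69.3 ± 18.2 (SD, n = 2) and 443 ± 168 (SD, n = 4), a log2 difference of -2.37 ± 0.13 (SE, adjusted p = 6.7e-06), or 5.16-fold lower on that scale. EGR1, a zinc finger factor of the serum response, gave 649 and 549 on replicate 1. On the others it gave 2649 and 2548 labelled trypsin-2 and 2169 and 2133 labelled vector, a log2 difference of -1.96 ± 0.06 (adjusted p = 7.1e-08). Its values within each round differed far less than the rounds did. DUSP1, the phosphatase that switches off MAP kinases, gave 223 and 245 against 999 and 1102 labelled trypsin-2 and 724 and 821 labelled vector (log2 -1.87 ± 0.12, with 1 of its 2 further probe sets of opposite sign). FOSB gave 6.35 and 4.37 against 39.0 to 71.4, and as both replicate 1 signals lie below the filter level it entered the test through the other arrays and no size is given. ATF3, a stress factor of the CREB family, gave 55.5 and 82.2 against 155 to 223 (log2 -1.36 ± 0.16). ZFP36, which speeds decay of cytokine RNAs, gave 304 and 251 against 393 to 642 (log2 -0.80 ± 0.09). ID1, an inhibitor of basic helix-loop-helix factors that also answers BMP signals, gave 199 and 237 against 580.2 to 997 (log2 -1.64 ± 0.16).

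Of 25 tested immediate early genes 13 were called lower and 3 higher, where 11.9% and 13.2% of all genes were, and the list's median was -0.28 against 0.01 over all genes. The other 6 called lower, JUN, IER2, IER3, KLF4, KLF6 and KLF10, differed by log2 values from -0.21 to -0.56. The 13 were 9 without the replicate 1 array labelled trypsin-2 and 11 without the one labelled vector. The 3 called higher included FOSL1, the AP-1 subunit that follows sustained ERK activity, which gave 1980 and 3103 on replicate 1 against 896 and 996 labelled trypsin-2 and 1542 and 1478 labelled vector. Its log2 difference was 1.04 ± 0.07 (adjusted p = 9.8e-06), and within each label replicate 1 was the highest array. PPP1R15A, a regulatory subunit that reverses eIF2 phosphorylation, gave 397 and 393 against 223 to 274 (log2 0.63 ± 0.09). MYC was called higher by a log2 of 0.22 with overlapping rounds. JUNB, JUND, MCL1, NR4A1 and CCN1 were not called, with log2 differences from 0.03 to 0.26. KLF2 (-0.31), ID3 (-0.28), IER5 (-0.12) and GADD45B (0.26) were not called either.

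**Figure D3:**
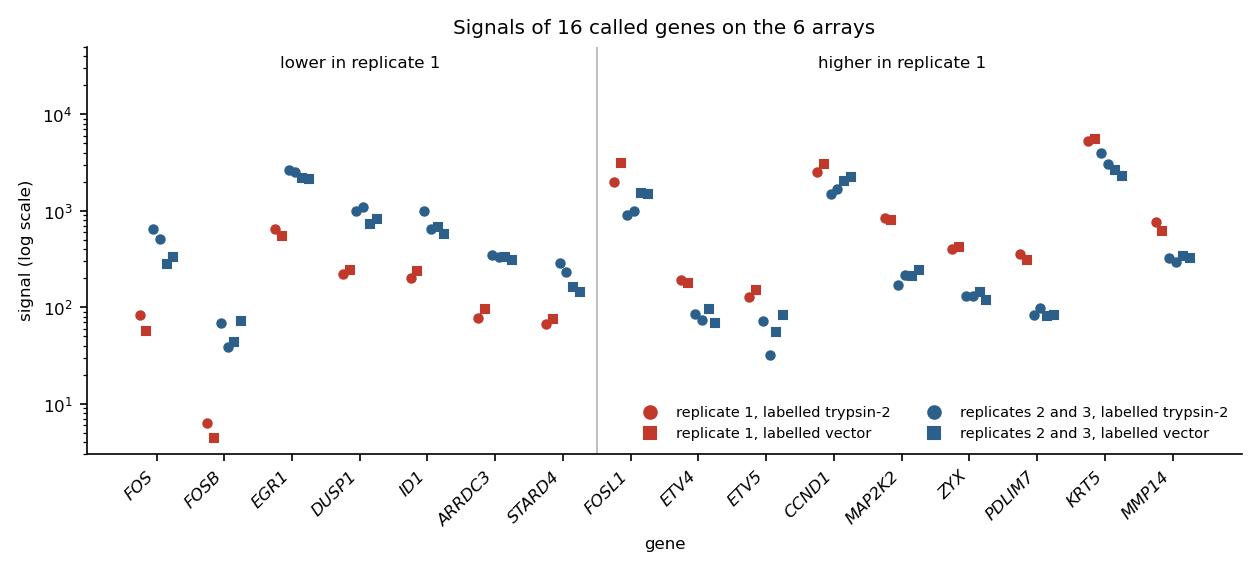
Signals (log scale) of 16 called genes on the 6 arrays, 7 lower in replicate 1 on the left and 9 higher on the right, with replicate 1 in red, replicates 2 and 3 in blue, circles for arrays labelled trypsin-2 and squares for those labelled vector. In none of the 16 does a red point lie within the range of the blue points.

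ERK feedback genes held called rises and no called fall. Of 17 tested genes of the MAPK feedback list 9 were called higher and none lower, against a background of 13.2% and 11.9%, and the median was 0.32. ETV4, an ETS factor transcribed on ERK activity, gave 191 and 179.8 on replicate 1 against 85.6 and 73.2 labelled trypsin-2 and 97.1 and 69.2 labelled vector (log2 1.06 ± 0.14, adjusted p = 0.00043). ETV5, its close relative, gave 128 and 150.4 against 31.8 to 83.3 (log2 1.06 ± 0.22, with 3 further probe sets of the same sign, none called). The receptor gene EPHA2 gave 478 and 762 against 299.9 to 436 (log2 0.71 ± 0.08). CCND1, which encodes cyclin D1, gave 2532 and 3097 against 1501 and 1680 labelled trypsin-2 and 2038 and 2232 labelled vector (log2 0.60 ± 0.07). The inhibitors SPRED2 (log2 0.60), DUSP5 (0.51), SPRY4 (0.46) and SPRY2 (0.43) and the ligand gene HBEGF (0.32) were the remaining called members. The other 8 members were not called, among them DUSP6 and SPRED1 at 0.09 each and LIF at -0.46. MAP2K2, which encodes the ERK kinase MEK2 and was not on the list, gave 836 and 798 against 172, 214, 211 and 242 (log2 1.89 ± 0.11, adjusted p = 6.7e-06). The 9 were 4 without the replicate 1 array labelled trypsin-2 and 5 without the one labelled vector.

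Targets of the serum response factor and of YAP, which read the actin skeleton, were called higher in 6 of 14 tested members and lower in 2, where 13.2% and 11.9% of all genes were. AXL, a receptor tyrosine kinase, gave 2902 and 2908 on replicate 1 against 1555 to 2213 (log2 0.64 ± 0.12, with its further probe set of opposite sign). AMOTL2, an angiomotin, gave 638 and 785 against 472 to 527 (log2 0.52 ± 0.08). SRF itself was called lower, with a further probe set of opposite sign. Its replicate 1 mean of 11.5 lies below the filter level, so that no size is given. CCN1 and CCN2, classical YAP targets, were not called, at 0.19 and -0.12. The 6 fell to 1 and 2 when the replicate 1 array labelled trypsin-2 or vector was left out. Outside the list, the 12 largest rises held ZYX, PDLIM7 and PLEC, put together here after their values were seen. ZYX, which encodes the adhesion protein zyxin, gave 404 and 422 against 131, 129.7, 144 and 120.2 (log2 1.55 ± 0.10, adjusted p = 9.4e-06). PDLIM7, a PDZ and LIM protein of stress fibres, gave 359 and 307 against 81.5 to 98.6 (log2 1.77 ± 0.11), and its 5 further tested probe sets were all called higher too. PLEC, which encodes the linker plectin, gave 433 and 332 against 99.6 to 151 (log2 1.48 ± 0.15).

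The 24 largest differences of called genes without overlap were mostly of other kinds. IGFBP4, a binding protein of insulin-like growth factors, gave 259 and 249.8 on replicate 1 against 28.5, 67.5, 76.6 and 62.7 (log2 1.91 ± 0.22). CNOT3, of the CCR4-NOT deadenylase, gave 191 and 202 against 52.9 to 67.2 (log2 1.46 ± 0.13), and SAC3D1, a centrosome protein, gave 877 and 1097 against 260.3 to 430.2 (log2 1.48 ± 0.10). The remaining large rises were ZNF335 (1.75, with its further probe set not called), NRSN2 (1.52) and GRINA (1.48), most of them dim on the other arrays, and ZNF579 and C19orf47. On the other 4 arrays the mean of ZNF579 (11.8) was below the filter level, as was C19orf47 on each. No size is given for these, as they entered the test through replicate 1. CA2, a cytosolic carbonic anhydrase, gave 6.25 and 9.35 on replicate 1 against 160.3 and 74.0 labelled trypsin-2 and 62.6 and 51.7 labelled vector. Its replicate 1 signals lie below the filter level, so that its place among the falls rests on the other arrays and no size is given. ARRDC3, an arrestin domain protein of the TXNIP family, gave 77.0 and 95.7 against 348, 334, 333 and 312 (log2 -1.77 ± 0.10, adjusted p = 6.7e-06), while its relatives TXNIP and ARRDC4 were not called, at -0.15 each. Of the 24 genes, 23 stayed called without the replicate 1 array labelled vector. Of 23 still tested without the one labelled trypsin-2, 17 stayed called, and SCD, KRT15, S100A8, ZNF335, NRSN2 and ZNF579 did not.

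Interferon-stimulated genes had the lowest median of the plotted lists. Of 31 tested members 12 were called lower and 1 higher, where 11.9% and 13.2% of all genes were. The 1 called higher was IRF1, whose other probe set had the opposite sign. The median log2 was -0.45 against 0.01 over all genes. SAMD9, an antiviral restriction factor, gave 57.1 and 70.7 on replicate 1 against 158 and 129 labelled trypsin-2 and 157 and 113 labelled vector (log2 -0.95 ± 0.15). GBP1, a guanylate-binding protein, gave 69.0 and 61.2 against 103 to 174 (log2 -0.88 ± 0.14). IFIT1, which binds viral RNA, gave 105 and 37.7 on replicate 1 against 223 and 137 labelled trypsin-2 and 100.5 and 66.3 labelled vector (log2 -0.76 ± 0.19, adjusted p = 0.015). Its rounds overlapped, as the arrays labelled trypsin-2 were higher than those labelled vector within each replicate number. IFIT3 gave 305 and 222 against 614 and 515 labelled trypsin-2 and 358 and 286 labelled vector (log2 -0.67 ± 0.12), with overlap of the same kind. The immunoproteasome subunits PSMB9 (log2 -0.83) and PSMB8 (-0.50) were lower with them. The list's median was -0.62 within the trypsin-2 label and -0.11 within the vector label, and that difference between labels was not tested for the list. The 12 fell to 3 without the replicate 1 array labelled trypsin-2 and were 10 without the one labelled vector.

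Of 23 tested NF-kB targets 8 were called lower and 4 higher, and the share called higher is near the 13.2% of all genes, with 11.9% of all genes lower. The list's median was -0.03, with -0.18 within the trypsin-2 label and 0.11 within the vector label, a difference that was not tested. CXCL3, a neutrophil chemokine, gave 113 and 87.0 on replicate 1 against 472 and 532 labelled trypsin-2 and 234 and 255 labelled vector (log2 -1.67 ± 0.14). CXCL2 gave 1285 and 684 against 3247, 3499, 1522 and 1464 (log2 -1.24 ± 0.08), while its other probe set went slightly the other way. NFKBIZ, a nuclear cofactor of NF-kB, gave 204 and 212 against 426 to 634 (log2 -1.23 ± 0.12). SOD2, IL6, CCL20, IL1B and IER3 were the other members called lower. The subunit genes RELB (113 and 87.2 against 36.9 to 63.2, log2 0.84 ± 0.14) and NFKB2 (125 and 98.3 against 46.4 to 71.3, log2 0.85 ± 0.16) were higher, as were ICAM1 (0.57) and PTGS2 (0.49). CXCL1, CXCL8 and TNFAIP3 were not called. Without the replicate 1 array labelled trypsin-2 the counts were 4 lower and 1 higher, and without the one labelled vector 10 and 4.

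Of 18 tested cholesterol synthesis genes 8 were called lower and 2 higher, against 11.9% and 13.2% of all genes, and the median was -0.28. INSIG1, which holds the SREBP precursor in the endoplasmic reticulum and is itself an SREBP target, gave 31.5 and 47.1 on replicate 1 against 189 and 138 labelled trypsin-2 and 124 and 117 labelled vector (log2 -1.51 ± 0.18). Both of its further probe sets were called lower too. STARD4, a sterol carrier, gave 66.8 and 76.4 against 287 and 231 labelled trypsin-2 and 162 and 143 labelled vector (log2 -1.30 ± 0.17). MSMO1, a sterol C4-methyl oxidase, gave 407 and 437 against 813 to 1019 (log2 -1.08 ± 0.09). IDI1, FDPS, HSD17B7, SC5D and TM7SF2, the last below the filter level on replicate 1, completed the 8. MVK and LSS were higher by 0.44 and 0.38, and HMGCS1 and SQLE were not called, at -0.32 and -0.09. The 8 were 5 without the replicate 1 array labelled trypsin-2 and 8 without the one labelled vector, and the 2 higher were 0 without either. Of 10 fatty acid synthesis genes 4 were lower and 1 higher. SCD, the stearoyl-CoA desaturase, gave 149 and 119 against 1273, 699.6, 313 and 207 (log2 -1.77 ± 0.31), a wide range among the other arrays. Its 3 further tested probe sets had the same sign, but none was called. FASN was higher by 0.63 ± 0.11. The 4 fell to 0 without the replicate 1 array labelled trypsin-2.

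Of 30 hypoxia and glycolysis genes 12 were called lower and 4 higher, where 11.9% and 13.2% of all genes were. The share called higher is near that of all genes. BHLHE40, a repressor also of the circadian clock, gave 73.1 and 77.3 on replicate 1 against 171 to 229 (log2 -1.28 ± 0.12). ANKRD37 gave 85.9 and 64.9 against 129.8 to 148 (log2 -0.76 ± 0.12), and VEGFA, MXI1, PFKFB3, P4HA1, P4HA2, SLC2A1, KDM3A, BNIP3, BNIP3L and ADM were lower by log2 values from -0.27 to -0.65. VEGFA has 3 further probe sets, 2 of opposite sign. The 4 called higher, PFKP (0.71), ALDOA (0.62), TPI1 (0.38) and GPI (0.26), are enzymes of glycolysis itself, and PFKP and TPI1 each have a further probe set of opposite sign. Of the same pathway PGK1, ENO1, LDHA and GAPDH were not called. The 12 were 5 and 7, and the 4 were 2 and 3, without the replicate 1 array labelled trypsin-2 or vector. Glucocorticoid targets, in cells all given hydrocortisone, were lower in 5 of 13 and higher in none, beside those 11.9% and 13.2%. Their median was -0.04. SGK1, a kinase of ion transport, gave 702 and 581 against 952 to 1398 (log2 -0.89 ± 0.08). KLF9 (below the filter level on replicate 1), TSC22D3 (-0.62), ERRFI1 (-0.47) and DUSP1 were the others, whereas FKBP5 was not called, at 0.08. The 5 were 2 without the replicate 1 array labelled trypsin-2 and 5 without the one labelled vector.

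Of 6 amino acid transport genes on the list of the ATF4 programme 3 were called higher, where 13.2% of all genes were. These 6 were put together here after their values were seen. SLC7A11, SLC7A1 and SLC38A2 were not called, at 0.30, -0.05 and -0.22. SLC1A5, a glutamine transporter, gave 629 and 658 on replicate 1 against 329, 311, 271 and 287 (log2 1.07 ± 0.09, adjusted p = 3.3e-05). SLC7A5, of the leucine transporter, gave 3669 and 3934 against 1843 to 2223 (log2 0.86 ± 0.08), and its partner SLC3A2 was higher by 0.29. SESN2, a leucine sensor of mTORC1, gave 108 and 143 against 48.7 to 80.0 (log2 0.87 ± 0.13, with its further probe set not called). DDIT4, an mTORC1 inhibitor induced by stress and glucocorticoids, gave 612 and 580.2 against 1515 to 1895 (log2 -1.44 ± 0.09, adjusted p = 7.7e-06). In all 5 of 27 tested members were higher and 4 lower, near the background in each direction, with a median of 0.00. ASNS, CHAC1, DDIT3 and TRIB3, the usual readouts of that programme, were not called. The 5 were 3 without either replicate 1 array. The 4 lower were 1 without the replicate 1 array labelled trypsin-2 and 4 without the one labelled vector.

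Stress and chaperone lists gave smaller differences. Of 16 heat shock genes 6 were lower and none higher, HSPB1 the most (468 and 495 on replicate 1 against 627 to 1093, log2 -0.68 ± 0.14), while HSP90AA1 and HSP90AB1 were at 0.01 and -0.01. The 6 were 0 and 3 without the replicate 1 array labelled trypsin-2 or vector, and 0 without the intensity trend. Endoplasmic reticulum chaperones were lower in 5 and higher in 3 of 19, with HSPA5 not called at -0.19, and without the replicate 1 array labelled trypsin-2 or vector the 5 were 2 and 3 and the 3 were 0 and 1. NRF2 targets (2 higher, 2 lower of 20), metallothioneins (1 and 1 of 8) and p53 targets (3 and 1 of 17, with CDKN1A at 0.05) were near or under the 13.2% higher and 11.9% lower of all genes. The 2 higher NRF2 targets were 0 without either replicate 1 array, and the 3 p53 targets were 0 and 2.

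Proliferation genes were called in both directions. Of 29 DNA replication genes 5 were higher and 6 lower, with a median of 0.01, and of 32 mitotic genes 7 were higher and 5 lower, where 13.2% and 11.9% of all genes were. Without the replicate 1 array labelled trypsin-2 or vector, the replication counts were 0 and 2 higher and 2 and 2 lower, and the mitotic counts 3 and 6 higher and 0 and 1 lower. CLSPN, an adaptor of the replication checkpoint (117 and 112 against 33.3 to 65.8, log2 0.99 ± 0.17), PLK1, a mitotic kinase (416 and 399 against 198 to 241, log2 0.87 ± 0.09), and CENPA, the centromeric histone (372 and 317 against 188 to 240.0, log2 0.70 ± 0.09), were higher. RFC4 (-0.50), KIF20A (-0.44), MCM6 (-0.40) and HMMR (-0.34) were lower, and MKI67, TOP2A, CDK1 and PCNA were not called. Quiescence and cell cycle inhibitor genes were lower in 6 of 14 and higher in none, among them HBP1 (-0.76), CDKN2B (-0.49) and CDKN1B (-0.38), and the 6 were 0 and 3 without the replicate 1 array labelled trypsin-2 or vector. All 10 tested replication-dependent histone genes were below 0, with a median of -0.29, and 3 were called, H2BC5 the furthest (324 and 259.9 against 408 to 558, log2 -0.70 ± 0.08). Most histone mRNAs, like ribosomal RNA, end without a poly(A) tail, and the part of labelling in these differences was not tested.

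Growth machinery lists held called genes in both directions, where 13.2% of all genes were called higher and 11.9% lower. In the brightest decile of genes 11.4% were higher and 22.7% lower, and the lists were not compared with genes of like level. Of 52 tested cytosolic ribosomal protein genes 4 were higher and 2 lower, under the background in both directions, and their median of 0.08 turned to 0.00 or below with quantile normalization, without the replicate 1 array labelled vector, and with gene density adjusted. RPL36 was the furthest (3506 and 3679 against 2302 to 2526, log2 0.59 ± 0.06). Of 31 ribosome biogenesis genes 6 were higher and 3 lower. TCOF1, the treacle factor of RNA polymerase I, gave 405 and 305 against 149.9 to 215 (log2 0.93 ± 0.14, with its further probe set not called). The 6 were 1 without either replicate 1 array. POLR1A and PES1 were higher by 0.43 and 0.39, while UBTF, NCL and FBL were not called. Translation factors were higher in 4 of 14 and lower in 1, the 4 becoming 1 and 2 without the replicate 1 array labelled trypsin-2 or vector. Of 33 respiratory chain genes 5 were higher and 8 lower, and the 8 became 3 without either array and the 5 became 3 and 2. Of 27 proteasome genes 2 were higher and 7 lower, the 7 becoming 0 and 3 without the replicate 1 array labelled trypsin-2 or vector. Spliceosome genes were lower in 6 of 22, led by SRSF1 (log2 -0.50 ± 0.07, with 3 of 7 further probe sets of opposite sign), and the 6 became 1 and 3.

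Keratinocyte lists were read by layer, and the difference between layers was not tested. Of 8 tested basal keratinocyte genes 5 were higher and 1 lower, where 13.2% and 11.9% of all genes were, with a median of 0.40. KRT5, the basal keratin, gave 5258 and 5567 on replicate 1 against 4012 and 3060 labelled trypsin-2 and 2676 and 2285 labelled vector (log2 0.87 ± 0.13). ITGB4, the hemidesmosomal integrin, gave 1769 and 1690 against 898 to 1023 (log2 0.81 ± 0.07, with both further probe sets called higher). KRT14 (0.46, and 0.19 and not called with gene density adjusted), LAMB3 (0.45) and CDH3 (0.34) were the other called rises. KRT15, a keratin of resting basal cells, went the other way, at 52.2 and 44.1 against 387, 143, 181 and 116 (log2 -1.65 ± 0.30). The differentiation list, of which 10 of 26 genes were tested, had 4 lower, none higher and a median of -0.37. S100A8 and S100A9, which form calprotectin, gave 60.7 and 33.9 against 80.0 to 605, and 100.4 and 54.7 against 117 to 309, log2 differences of -1.54 ± 0.47 and -1.05 ± 0.23. The highest value of each came from the array of replicate 2 labelled trypsin-2. The 4 fell to 0 without either replicate 1 array, while the 5 basal rises were 5 and 3. Of 24 matrix and mesenchymal genes 5 were higher and 2 lower, against 13.2% and 11.9% of all genes, and the 5 were 3 without either replicate 1 array. MMP14, a membrane-bound metalloproteinase, gave 770.1 and 619 against 294 to 339 (log2 1.07 ± 0.10, with all 3 further probe sets called higher), and MMP9, a gelatinase, gave 77.3 and 52.6 against 107 to 140.2 (log2 -0.83 ± 0.14). VIM and SPARC were higher by 0.50 and 0.49, each with a further probe set of opposite sign.

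**Figure D4:**
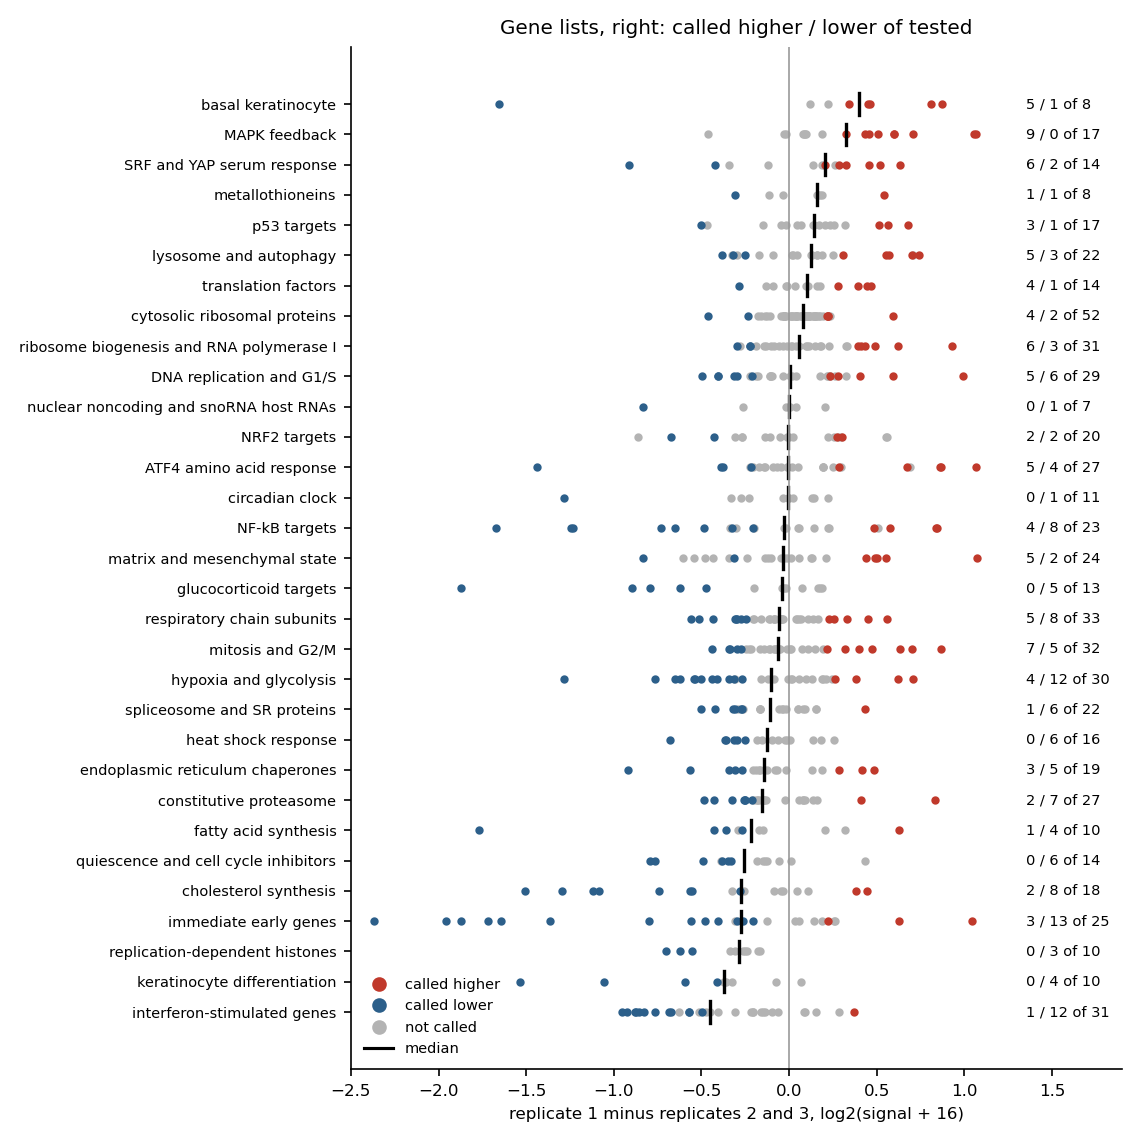
Round difference, replicate 1 minus replicates 2 and 3 on the scale of log2(signal + 16), of each tested member of the 31 gene lists with 7 or more tested members, ordered by median (black bar), with genes called higher in red, called lower in blue and not called in grey. The numbers at the right give members called higher and lower of those tested, and the lists run from interferon-stimulated genes (median -0.45) to basal keratinocyte genes (0.40).

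The difference also followed where genes lie. For 11274 of the genes, 92.8%, the number of protein-coding genes centred within 1 Mb was counted. In the decile of genes with the fewest neighbours, 0 to 7, the median round difference was -0.11, with 50 called higher and 215 lower. It rose through every following decile, passing 0 at the sixth, to 0.20 in the decile with 62 to 112 neighbours, with 338 genes called higher and 71 lower. The rank correlation over genes was 0.31, and 0.32 and 0.26 within the labels trypsin-2 and vector, with neighbouring genes sharing most of their count. Genes called higher had a median of 39 neighbours, genes called lower 15, and all genes 21. Taken array by array as deviations from the gene's mean over the 6 arrays, the densest decile exceeded the sparsest by 0.24 and 0.19 on the replicate 1 arrays. On the other 4 arrays it was below by 0.12 and 0.13 (labelled trypsin-2) and 0.077 and 0.097 (labelled vector). No array of either round went against its round. As the deviations are from the mean of the same 6 arrays, the opposite signs of the rounds were partly set by that centring.

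By chromosome the medians ran from -0.12 on chromosome 13 (215 genes, 5 called higher and 48 lower) and -0.07 on chromosome 4 to 0.10 on chromosomes 16 and 22 and 0.18 on chromosome 19 (793 genes, 199 higher and 30 lower). Chromosome 13 has a median of 11 neighbours per gene and chromosome 19 a median of 59. Of the 23 chromosomes with at least 100 tested genes 13 had a median below 0 and 10 above. Longer genes had lower differences (rank correlation with gene span -0.17), and GC content of the promoter window was related more weakly (0.11 over 9883 genes). Brighter genes also had lower differences (-0.19 with the mean level).

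**Figure D5:**
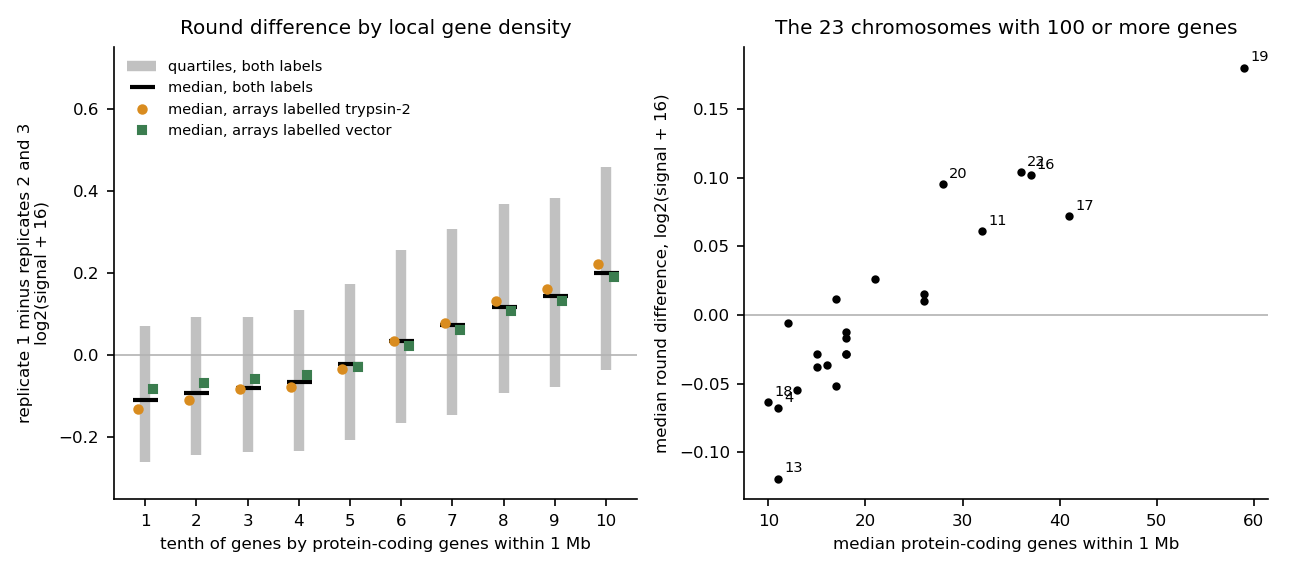
Left, round difference on the scale of log2(signal + 16) in each decile of 11274 genes by the number of protein-coding genes within 1 Mb, with quartiles as grey bars, medians as black lines and the medians within each label as orange circles (trypsin-2) and green squares (vector). Right, median round difference of each of 23 chromosomes against its median number of neighbours, from chromosome 13 (-0.12) to chromosome 19 (0.18).

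With that relation removed by a smooth curve, an alternative chosen after seeing the data, 1292 of the 11274 genes were called higher (11.5%) and 1628 lower (14.4%). The share of higher genes among called ones was 44.2%, against 52.0% for the same genes unadjusted. All of the 24 largest differences stayed called. Counts of some lists moved little, with 12 immediate early genes lower and 4 higher, 8 MAPK feedback genes higher, 14 interferon-stimulated genes lower, 8 cholesterol synthesis genes lower and 11 hypoxia and glycolysis genes lower. Others moved by more: keratinocyte differentiation genes lower went from 4 to 7, NRF2 targets from 2 to 4 higher and 2 to 5 lower, and cytosolic ribosomal proteins lower from 2 to 5. Histone genes lower went from 3 to 5, ribosome biogenesis genes lower from 3 to 1, and hypoxia and glycolysis genes higher from 4 to 2. The 12 largest rises had a median of 60 neighbours and the 12 largest falls 27.5. Of the named genes 18 were no longer called (limma, adjusted p from 0.058 to 0.346): TPI1, GPI, MCM7, ATF5, KRT14, IRF1, EIF5A, ATP5F1B, NDUFV1, PSMC4, NQO1, SRXN1, RPL34, NOP58, WDR12, DNAJB9, PLK3 and MMP1.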

How the data were processed

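All 6 arrays were used, 3 per label. For every array the deposited intensities are linear MAS5 signals, 1 a probe set, as the submitters' processing notes name the tool, and the sources used here do not give its version. The mean signal between percentiles 2 and 98 was 99.98 on every array, and no further scaling was applied. Of 54675 probe sets, 62 are controls, 41091 have 1 symbol, 1801 several and 11721 none. Of the 41091, 41037 were matched to RefSeq by gene identifier and took its current symbol. Presence calls were not used here.

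Signals were transformed as log2(signal + 16). Probe sets whose mean reached the median of non-control probe sets (4.96, a signal of 15.2) were tested, 27307 in all. limma 3.58.1 in R 4.3.3 fitted round and label (lmFit, eBayes with trend), with Benjamini-Hochberg adjustment over these probe sets at 0.05. A gene with several probe sets is represented by the one of highest mean. Quality measures were tested by two-sided exact permutation over 15 choices of arrays. The number of arrays limits the precision.

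The comparison, the gene lists and the rules were chosen with earlier results of these data known, the split at replicate 1 included. Named genes are the 12 largest rises and 12 largest falls among called genes without overlap whose higher round mean reached the filter level, up to 4 called members of each list per direction (the 2 of smallest p where none was called), every trypsinogen probe set and the 5 smallest interaction p. Other genes were named after their values were seen. Alternatives were other pseudocounts, filters, normalizations, variance priors, probe set rules, the replicate block and each array left out, and, chosen after seeing the data, gene density adjusted, located genes only and the block without a trend. In the pairing check, deviations of same-numbered arrays from their label's mean correlated with r = 0.644, 0.386 and 0.25 for numbers 1, 2 and 3. Arrays of other numbers passed 0.1 too (0.316 and 0.2). A gene's neighbours and promoter window came from RefSeq tables on GRCh38.p14.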

Additional observations from a re-analysis of the deposited data

Results flagged for a closer look

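Of 204 values checked among the 4 arrays of replicates 2 and 3, 8 had 1 array far from the other 3, where chance gives about 1 in 20. All 8 were arrays labelled trypsin-2, 4 of replicate 2 and 4 of replicate 3. On replicate 3, PDLIM7 had a signal of 98.6 where the other arrays had 81.5 to 83.0, TPM1 had 1438 where they had 1302 to 1315, and SRSF1 had 3703 where they had 3345 to 3386. The Alu repeat signal was 13.32 on the log2 scale on that array against 13.27 to 13.28. On replicate 2, HSPH1 had 2319 where the others had 2494 to 2516, and HBP1 had 198 where they had 136 to 144. On the same array the 18S ribosomal RNA probe set of the middle was 5.94 on the log2 scale against 6.64 to 6.76, and the bioB spike 8.10 against 8.34 to 8.37. All 5 genes were called between rounds, PDLIM7 higher and the others lower in replicate 1, and TPM1 has 2 and SRSF1 3 further probe sets of opposite sign.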

How the results depend on the processing

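The 3041 genes called between rounds became 1576 with a variance prior that did not follow intensity (1001 higher, 575 lower), 1762 without the label covariate, 1817 without probe sets ending in _x_at or _s_at, and 1230 with that prior and the replicate block, an alternative added after seeing the data. They ranged from 699 to 3268 when arrays were left out, 699 without the replicate 1 array labelled trypsin-2 and 1320 without that labelled vector. Of the 699, 673 were among the 3041, all with the same direction. With the replicate number as a block 3231 were called, 3009 of them among the 3041, and of 179 named genes called 4 lost their call (MT1M, H2BC4, RPL30 and WDR12). Other pseudocounts, filters, quantile normalization, centring and gene density gave 2096 to 3235. The difference of rounds between labels, with 0 genes called, gave 10 with array medians centred. The cause was not tested.

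Signs turned mostly with the probe sets chosen. Without probe sets ending in _x_at or _s_at the log2 differences were 0.094 for CXCL2, 0.31 for DNAJC3, 0.25 for FKBP4, 0.061 for LAMP1, -0.11 for MDM2, -0.44 for PDIA4, -0.32 for RBM3, -0.15 for RPL35A, -0.0065 for SPARC, -0.64 for SQSTM1, -0.39 for TPI1 and 0.17 for TPM1. With all probe sets of a gene averaged they were 0.048 for ELOVL5, 0.11 for FKBP4, -0.18 for IRF1, 0.050 for TNFRSF10B, -0.10 for TRA2A, 0.055 for VEGFA, -0.40 for VIM and 0.032 for WDR12. Genes not called changed sign when arrays were left out: CXCL8 from -0.35 to 0.32, LYPLA2 from -0.20 to 0.85, PRKCSH from -0.30 to 0.57, PRSS2 from -1.46 to 0.27 and PRSS3 from -0.19 to 0.39. CXCL8 was 0.0014 with quantile normalization and 0.0033 with density adjusted, where PRKCSH was -0.035 and PRSS3 -0.011. The median of cytosolic ribosomal proteins was -0.0019 with quantile normalization, -0.046 without _x_at and _s_at probe sets and -0.0047 with density adjusted, and from -0.00098 to 0.16 with arrays left out. Without _x_at and _s_at probe sets that of metallothioneins was -0.17 and that of translation factors -0.012.

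With 2 arrays in replicate 1, small differences of dim genes cannot be told from the spread of the arrays.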

Other observations

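Gene families named by symbol gave further values, chosen after the data were seen. Of 334 tested zinc finger genes named ZNF, 30 were higher (8.98%) and 16 lower (4.79%), with a median log2 of 0.03, although their median of 44 neighbours within 1 Mb is well above the 21 of all genes. Solute carriers (SLC, 230 tested) were called higher in 40 and lower in 13, protein phosphatase genes (PPP, 66 tested) in 17 and 8, and RING finger genes (RNF, 60 tested) in 15 and 6, with medians of 0.06, 0.07 and 0.11. Genes named USP, deubiquitinases for the most part, were called higher in 5 and lower in 9 of 44, with a median of -0.07. Of 149 long noncoding genes named LINC 6 were higher and 2 lower. Over all genes 13.2% were higher and 11.9% lower.

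MALAT1, an abundant nuclear RNA, gave 599 and 432 on replicate 1 against 911 and 552 labelled trypsin-2 and 1301 and 1083 labelled vector, a log2 difference of -0.83 ± 0.23 with overlapping rounds (limma, adjusted p = 0.027), and 4 of its 11 further probe sets were called lower too. It was -0.24 and not called without the replicate 1 array labelled vector, -1.42 without the one labelled trypsin-2, and not called with a variance prior that did not follow intensity. CTSD, a lysosomal protease, gave 166 and 171 against 78.8 to 105 (log2 0.74 ± 0.13), and of 22 lysosome and autophagy genes 5 were higher and 3 lower, beside those 13.2% and 11.9%. The 5 were 1 and 2 without the replicate 1 array labelled trypsin-2 or vector, and the 3 were 0 without either.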
